A study of Mus musculus with 46 samples.

Results

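The sites described here are stretches of open chromatin far from gene starts that were called in proliferating (Ki67-positive) mouse microglia on postnatal day 8 (PND8), were called again in Ki67-positive microglia repopulating the adult brain, and were absent from the peak list of undisturbed adult microglia. Open chromatin was measured by ATAC-seq, in which a transposase cuts accessible DNA. A peak was a member when its midpoint lay more than 2500 bp from every transcription start of a gene in the RNA count table, when it overlapped a repopulation peak by at least 1 bp, and when it overlapped no adult peak. Of 75296 PND8 peaks, 55346 were distal by this distance, and 10941 of those (19.8%) were members, called new sites below. The comparison set was the 37466 distal PND8 peaks (67.7%) present in all 3 ATAC lists, called shared sites. Another 5187 (9.37%) were in the PND8 list alone and 1752 (3.17%) were in the PND8 and adult lists but not in repopulation.

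All mice were male C57BL/6. The ATAC data were 1 library each of adult basal microglia at day 80, Ki67-positive microglia at PND8, and Ki67-positive microglia at day 75. The day 75 mice had received PLX5622, an inhibitor of the CSF1 receptor that depletes microglia, for 17 days from day 55, and then had 3 days of recovery (repopulation). The titles of the PND8 and repopulation ATAC libraries name the Ki67rfp reporter while their genotype label reads wild type. RNA-seq had 2 libraries in each of 5 groups: wild-type adult basal at day 90, and Ki67-negative and Ki67-positive cells of Ki67-rfp mice at PND8 and after the same PLX5622 and recovery schedule at day 75. Reporter genotype therefore differs between the adult RNA group and the other 4 and cannot be told apart from them. Both adult RNA libraries also share a number in the column headers, 190710, that no other RNA library carries. Its meaning is not stated, and it cannot be told apart from the adult group in any RNA comparison with adult. ChIP-seq for H3K27ac, histone H3 acetylated at lysine 27, had 2 libraries in each of 6 groups of wild-type mice whose cells were fixed and stained for Ki67: adult basal at day 60 and day 65, Ki67-negative and Ki67-positive at PND8, Ki67-negative and Ki67-positive after 4 weeks of cuprizone at day 90, and Ki67-positive repopulation at day 90, with PLX5622 from day 70 (the file header of the first of these libraries names day 80). H3K4me3 was measured in 2 adult libraries at day 75. Rpb2, a subunit of RNA polymerase II, was measured in 2 adult libraries, at day 60 and day 65 (the title of the second says day 60), and in 1 library of PND8 Ki67-positive cells. The adult basal libraries carry a Ki67-negative label. Cuprizone is a copper chelator that strips myelin and makes microglia divide. No ATAC library of Ki67-negative or cuprizone microglia was analysed here. Ki67 status, age and repopulation therefore cannot be told apart in what chose the sites. By the titles, reporter genotype also differs between the adult ATAC library and the other ATAC libraries, and cannot be told apart either.

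Microglia are the macrophages of the brain and renew themselves by dividing in place. Distal open sites are where enhancers lie, which bind the lineage factor PU.1 with partners such as AP-1, IRF and MAF proteins, and H3K27ac marks enhancers and promoters in active use. Ki67, encoded by Mki67, coats mitotic chromosomes and is present in cycling cells. An open site with no H3K27ac can be a primed enhancer, an insulator or an inactive element, and openness alone does not tell these apart.

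No genome came with the files, so DNA letters were read where a new site fell on a RefSeq promoter window, which runs from 250 bases before to 50 after an annotated start on GRCm38. Such windows exist for transcripts outside the count table, and for alternative starts, so 146 new sites (1.33%) lay on one although every site was distal from count-table starts. Of these, 52 (35.6%) had H3K27ac in at least 1 library. The 6 sequences below are 1 example with no mark, Rorb, and 5 of the marked minority: Sptbn1 and 5430437J10Rik have no H3K27ac in either adult library, and Gm32287, Creb5 and Mxi1 are marked in adult microglia as well. Each is the part of the site inside the RefSeq window, 5′ to 3′ on the named strand, in lower case, with matches to the searched motifs in capitals (both strands: PU.1 AGGAAGT, MAF TGCTGAC, NFY CCAAT, AP-1 TGANTCA, E2F GGCGGGA and KLF/SP GGGCGGG, the last pair overlapping in Mxi1).
Rorb, chr19:19111216-19111334, minus strand: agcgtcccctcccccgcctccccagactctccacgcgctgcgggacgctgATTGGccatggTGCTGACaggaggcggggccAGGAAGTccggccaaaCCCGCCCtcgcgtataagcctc
Sptbn1, chr11:30198258-30198369, minus strand: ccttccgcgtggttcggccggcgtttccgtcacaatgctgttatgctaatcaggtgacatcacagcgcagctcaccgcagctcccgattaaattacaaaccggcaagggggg
5430437J10Rik, chr15:5496083-5496201, plus strand: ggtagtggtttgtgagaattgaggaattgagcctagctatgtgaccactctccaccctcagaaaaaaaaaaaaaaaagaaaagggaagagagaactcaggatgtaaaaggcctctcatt
Gm32287, chr2:167777947-167778065, minus strand: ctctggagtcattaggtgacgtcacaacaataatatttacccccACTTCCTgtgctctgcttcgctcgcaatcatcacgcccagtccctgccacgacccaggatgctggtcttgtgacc
Creb5, chr6:53573268-53573373, plus strand: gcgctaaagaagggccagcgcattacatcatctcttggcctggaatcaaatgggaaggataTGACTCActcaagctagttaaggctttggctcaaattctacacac
Mxi1, chr19:53329531-53329649, plus strand: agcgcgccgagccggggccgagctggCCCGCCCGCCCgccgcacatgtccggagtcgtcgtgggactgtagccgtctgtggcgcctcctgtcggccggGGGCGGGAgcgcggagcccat

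The Rorb site, 110158 bp from the counted start of this nuclear receptor gene, scored 27 at PND8 and 37 in repopulation, held matches to PU.1, MAF, NFY and KLF/SP, and had H3K27ac in 0 of 12 libraries. The Sptbn1 site, 21462 bp from the start used in the count table, had ATAC scores of 16 at PND8 and 21 in repopulation and H3K27ac in 8 of 12 libraries. Those were all 4 PND8 libraries, both repopulation libraries, and the second cuprizone library of each Ki67 class. No match to the 15 motifs was in its letters, which says only that those letters are not in this window. The 5430437J10Rik site, 251955 bp from Ptger4 as the nearest count-table gene, had H3K27ac in 4 libraries, both of repopulation and the second cuprizone library of each Ki67 class, and likewise held no match. The Gm32287 site lay 89091 bp from Cebpb, which encodes a C/EBP factor, held a PU.1 match on its other strand, and was marked in 12 of 12 H3K27ac libraries. The Creb5 site, with an AP-1 match, was marked in 12 of 12 as well, and scored 42 at PND8 and 49 in repopulation. The Mxi1 site, 19084 bp from the counted start of this MYC antagonist, was marked in 10 of 12, 1 of them adult. These sites had high scores for new sites, as the next values show.

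Over the 156 RefSeq windows that carried a new site, the PU.1 letters occurred in 22.4%, against 17.9% of 883 windows with a shared site and 9.35% of all 32851 windows. The MAF letters occurred in 10.9%, against 5.89% and 4.67%. The CTCF letters AGGGGGC were in 18.6%, against 15.2% and 10.6%, and AP-1 letters in 8.97%, against 9.06% and 7.81%. CCAAT, bound by NFY, occurred in 29.5%, against 38.4% and 37.4%, and C/EBP letters (TTGC, any 2 bases, AA) in 4.49%, against 11.2% and 10.8%. Median GC content was 53.3% in new-site windows, 54.7% in shared-site windows and 52.7% over all windows. These shares describe whole windows of 300 bases, so a match can lie in the window but outside the open site. The DNA of new sites outside such windows was not analysed here.

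New sites were weak peaks. The median score of the authors' peak caller was 9 in the PND8 list (interquartile range 7 to 12), against 16 (11 to 26) for shared sites and 7 for PND8-only sites. The lowest score in the list was 6, and 3776 new sites (34.5%) scored 6 or 7, against 8.35% of shared sites. In the repopulation list the median score was 11 for new sites and 23 for shared sites. The members were chosen by these ATAC calls, so the scores describe the choice and carry no test. The ATAC lists differed in size: 71642 adult peaks from 6676695 tags with 43.6% of tags in peaks, 75296 PND8 peaks from 7376675 tags with 31.3% in peaks, and 95411 repopulation peaks from 8585406 tags with 39.3% in peaks. The adult list thus came from the fewest tags, and the part that depth plays in absence from it was not tested.

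Sites near the edges of the rule were close to the other class. The member nearest to a start was 2503 bp away with a score of 15, and the nearest PND8 and repopulation peak just outside was 2499 bp away with a score of 19. An adult peak lay within 500 bp of 1063 new sites (9.72%) and within 100 bp of 275 (2.51%), and 8 new sites stood 1 bp from one. New sites lay a median of 33387 bp from the nearest counted start, against 27413 bp for shared sites, and 20.1% lay beyond 100000 bp. RefSeq placed 5707 (52.2%) inside a protein-coding gene, 937 (8.56%) in a noncoding gene only and 4297 (39.3%) outside genes. The highest score, 96, belonged to chr2:98662663-98662781, 1195065 bp from Lrrc4c, with a signal of 638.5 and H3K27ac in 0 of 12 libraries. The next in score were near Ston2 (71, 12 of 12 libraries), Phactr1 (68, 6 of 12) and Egr3 (68, 12 of 12), the last an immediate-early zinc finger gene. The signals of the sites near Ston2, Phactr1 and Egr3 were 177.6, 187.1 and 210.1, far below that of the top site. What sets the top site apart was not tested, and the peak lists were used here without removing regions prone to false signal. Of the 190 new sites with a score above 25, 61.1% had the mark in at least 1 library. High scores were therefore found both with and without the mark.

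Most new sites carried no H3K27ac. Of the 10941, 8218 (75.1%) overlapped a region in none of the 12 libraries, 2343 (21.4%) in 1 to 11, and 380 (3.47%) in all 12. Among shared sites 32.8% were in none and 24.1% in all 12. PND8-only sites resembled new sites in this count, with 77.5% in none. A total of 632 new sites were marked in a single library. In all, 823 new sites (7.52%) were marked in at least 1 adult library although no adult ATAC peak was called there.

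The share of new sites under H3K27ac was lowest in the adult libraries. It was 5.06% and 7.06% in the 2 adult libraries, 11.2% and 12.5% in PND8 Ki67-negative cells, and 11.1% and 14.2% in PND8 Ki67-positive cells. It was 8.08% and 12.7% in Ki67-negative cuprizone cells, 9.51% and 13.6% in Ki67-positive cuprizone cells, and 14.3% and 11.7% in repopulating cells. Both adult values lay below each of the other 10, while the other 5 groups overlapped one another. The mean of the 10 libraries was 11.9% against 6.06% ± 1.41 (SD, n = 2) in adults, a difference of 5.83 percentage points (two-sided exact permutation p = 0.0152, the smallest that 66 regroupings can give; 0.0455 adjusted over 3 comparisons). The new sites were chosen for lacking an adult ATAC peak, so this p-value is not independent of the choice. The part of the choice in the difference was not tested. The test also pools 5 groups as 10 libraries against 1 group of 2. When only H3K27ac regions at least 8-fold over input were kept, the difference was 3.52 points and the call was lost (adjusted exact permutation p = 0.273). With any 1 of the 12 libraries left out the differences were 4.84 to 6.83 points, and too few regroupings remained for a call to be possible.

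Shared sites moved in the same direction but less in proportion. Their share was 32.8% and 44.5% in the adults and 42.2% to 53.5% in the others, so the adult range overlapped. The ratio of the new-site share to the shared-site share was 0.154 and 0.159 in adults. In the other 10 libraries it was 0.192 to 0.279, without overlap (two-sided exact permutation p = 0.0152, adjusted 0.0455). Like the p-value for the share itself, this one is not independent of how the sites were chosen. PND8-only sites, which also lack an adult ATAC peak, were marked at 6.4% and 9.54% in adults and 9.58% to 15.2% in the other libraries. The lower adult share was therefore not particular to new sites. The first adult library covered 30 Mb with H3K27ac regions and the others 40.7 to 52.2 Mb. Among the 5 libraries that covered 40.7 to 42.5 Mb, the second adult library (42.1 Mb) marked 7.06% of new sites, the first Ki67-negative cuprizone library (40.7 Mb) 8.08%, the first Ki67-positive cuprizone library (41.5 Mb) 9.51%, and the first PND8 Ki67-negative (42.4 Mb) and Ki67-positive (42.5 Mb) libraries 11.2% and 11.1%. The part of covered length in the difference was not tested.

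**Figure D1:**
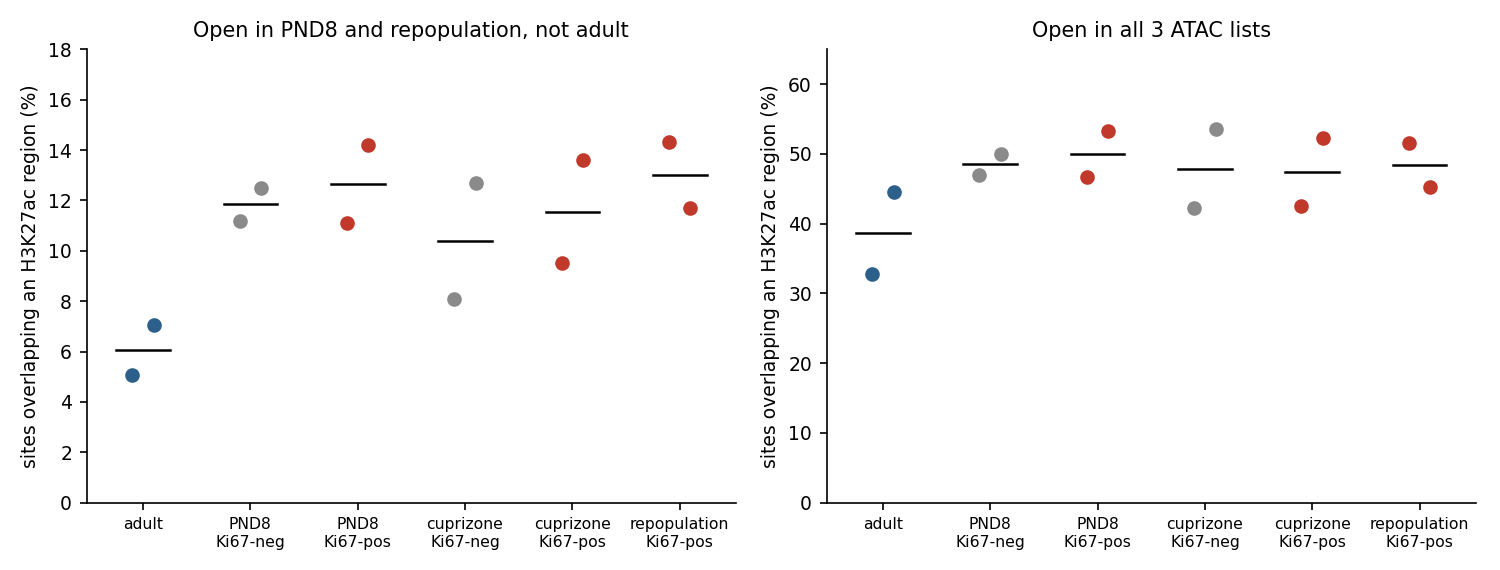
Share of new sites (left) and shared sites (right) that overlap an H3K27ac region, in percent; each point is 1 library, bars are means of 2, and the axes differ in range. On the left the adult points at 5.06% and 7.06% sit below the other 10, and on the right the adult library at 44.5% lies among them.

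A difference by Ki67 status was not detected at new sites. The 6 Ki67-positive libraries outside adult averaged 12.4% and the 4 Ki67-negative libraries 11.1%, a difference of 1.31 points, within the spread of 8.08% to 14.3% (two-sided exact permutation p = 0.338, adjusted 0.4). The Ki67-positive arm held 2 repopulation libraries with no Ki67-negative partner, so Ki67 status and repopulation are mixed there. In the 4 and 4 libraries of PND8 and cuprizone alone the means were 12.1% and 11.1% (difference 0.994 points, two-sided exact permutation p = 0.6, chosen after seeing the data). These tests take no account of condition or replicate number. The second cuprizone libraries (12.7% Ki67-negative and 13.6% Ki67-positive) exceeded the first (8.08% and 9.51%), and such spread can hide a small difference by Ki67 status. Over the 6 and 4 libraries the ratio to shared sites gave 0.254 against 0.229 (two-sided exact permutation p = 0.114, adjusted 0.171). The 4 PND8 and 4 cuprizone libraries averaged 12.2% and 11% (difference 1.28 points, two-sided exact permutation p = 0.4, adjusted 0.4). These p-values do not show that the shares were alike. The libraries are numbered replicates, and the labels used here do not say that they came from separate animals, so the p-values measure the spread between these samples.

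The groups had many marked sites in common. New sites marked in both libraries numbered 503 in adult, 1023 in PND8 Ki67-negative, 1087 in PND8 Ki67-positive, 829 and 943 in Ki67-negative and Ki67-positive cuprizone, and 1027 in repopulating cells. The PND8 Ki67-negative and Ki67-positive sets had 854 in common, 83.5% of the first and 78.6% of the second. The PND8 Ki67-positive and repopulation sets had 716 in common, 65.9% and 69.7%. Of the 503 adult sites 468 (93%) were in the PND8 Ki67-positive set, of which they made up 43.1%.

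Stronger open sites were marked more often, and at equal score new sites were marked less often than shared ones. H3K27ac in at least 1 library was found at 19% of new sites with a score of 6 or 7 and at 48.2% of such shared sites. The share rose through 22.7%, 29.8% and 37.4% to 61.1% of the 190 new sites with a score above 25, against 88.8% of shared sites in that bin. It fell a little with distance, from 27.5% within 10000 bp of a start to 20.9% beyond 100000 bp. The classes thus differed within each score bin.

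**Figure D2:**
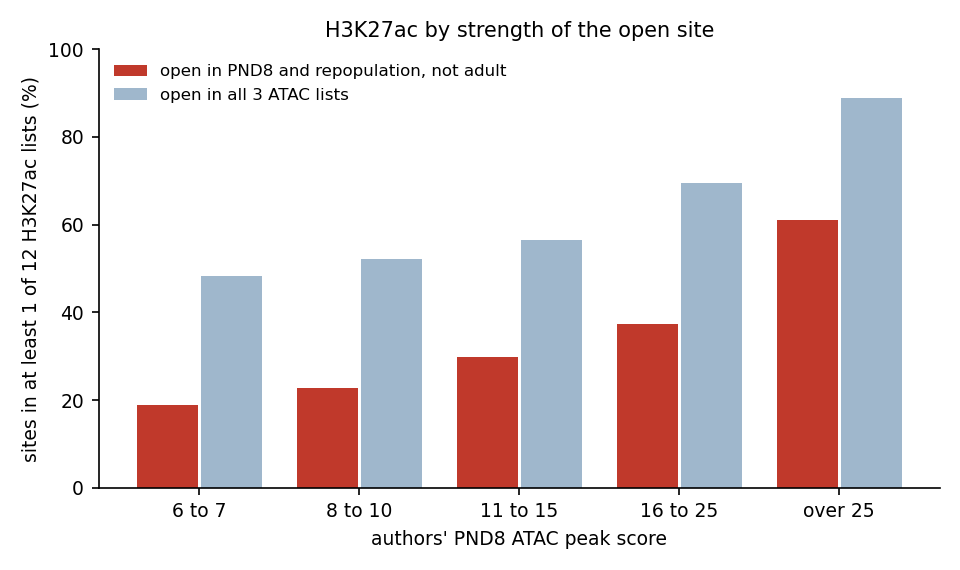
Percent of sites overlapping H3K27ac in at least 1 of 12 libraries (vertical axis) by PND8 ATAC peak score (horizontal axis), for new sites in red and shared sites in blue. New sites go from 19% to 61.1% and are below shared sites, 48.2% to 88.8%, in each bin.

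Other marks were sparse at new sites. H3K4me3, a promoter mark measured in adult cells only, covered 5.95% (95% exact binomial interval 5.51 to 6.41) and 6.04% of new sites in 2 libraries, against 17% and 17.3% of shared sites. RNA polymerase II, measured through its subunit Rpb2, was called at 496 new sites (4.53%, interval 4.15 to 4.94) in the PND8 Ki67-positive library and at 94 (0.859%) and 53 (0.484%) in the 2 adult libraries. Shared sites had 34.7%, 10.6% and 4.92%. The Rpb2 lists held 31602, 14550 and 10544 regions, and as a ratio to shared sites the 3 values were 0.13, 0.0808 and 0.0985. There was 1 PND8 library, so the difference has no replicate check, and the intervals cover counting error only.

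A small group of new sites had H3K27ac in both PND8 Ki67-positive and both repopulation libraries and in neither adult library. There were 143 such gained sites (1.31% of new sites), against 882 (2.35%) of shared sites and 40 (0.771%) of PND8-only sites. The count depends on the adult calls: it was 274 without the second adult library, and 24 with regions at least 8-fold over input. The 143 sites lay under 138 distinct regions of the first PND8 Ki67-positive library, so a few share a region. Of them 82 (57.3%) were inside a protein-coding gene, the median distance to a start was 26296 bp, and 101 had neither adult H3K4me3 nor a RefSeq start within 2500 bp.

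Most gained sites were marked in Ki67-negative cells as well. At least 1 PND8 Ki67-negative library marked 122 of the 143 (85.3%) and both marked 83 (58%). At least 1 Ki67-negative cuprizone library marked 106 (74.1%), and at least 1 Ki67-positive cuprizone library 125 (87.4%). All 10 libraries outside adult marked 32 (22.4%). No Ki67-negative library marked 13 (9.09%), and 2 new sites were marked in all 6 Ki67-positive libraries and no other: chr15:100706399-100706517, 18538 bp from Cela1, a pancreatic elastase gene, and chr4:135239354-135239472, 33347 bp from Clic4, a chloride intracellular channel protein. Rpb2 in the PND8 library was called at 32 gained sites (22.4%, 95% exact binomial interval 15.8 to 30.1), and in the adult libraries at 2 and 0 (0 of 143 allows up to 2.55%). The 2 adult H3K4me3 libraries covered 18.9% and 18.2% of gained sites, against 5.95% and 6.04% of all new sites.

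Single gained sites show the range. At chr2:34906899-34907017, 7018 bp downstream of the start of Phf19, a Polycomb-like protein that recruits PRC2, the authors' region signal was 163.7 and 203.5 in PND8 Ki67-positive, 213.3 and 290.8 in repopulating, and 128.1 and 159.6 in PND8 Ki67-negative libraries. No region was called there in either adult library or in the first Ki67-negative cuprizone library, and cuprizone values were 128.7 in the second, and 28.2 and 170.3 in Ki67-positive cells. At chr16:90144197-90144315, 76506 bp upstream of Sod1, the cytosolic superoxide dismutase, the signal was 116.1 and 179.7 in PND8 Ki67-positive, 65.3 and 74 in PND8 Ki67-negative, and 101 and 84.1 in repopulating cells. Of the adult and cuprizone libraries only the second Ki67-positive cuprizone library had an H3K27ac region there, of 68. This site lay inside a protein-coding gene and overlapped H3K4me3, the promoter mark, in adult cells. At chr2:152927538-152927656, 5611 bp downstream of the start of Foxs1, all 10 libraries outside adult had a region, from 77.7 in a PND8 Ki67-negative to 475.1 in a Ki67-positive cuprizone library, yet the forkhead gene itself had too few RNA counts to test. At chr5:24389416-24389534, 2668 bp downstream of the start of Atg9b, an autophagy gene, 4 libraries had a region: 27.4 and 47.6 in PND8 Ki67-positive and 72.9 and 96.6 in repopulating cells. The strength and the set of conditions thus differed widely among gained sites.

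The new sites had 6240 nearest genes. Of these 3729 were nearest to 1 new site, 1977 to 2 or 3, and 534 to at least 4. Among the 1343 genes with at least 10 distal PND8 peaks, the median share of new sites was 13%, and for 33 genes it was at least 50%. Being nearest does not show that a site acts on the gene.

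Mki67 had the most, with 12 new sites among its 21 distal PND8 peaks (57.1%), all upstream, from 57702 to 349541 bp, in a stretch of 621 kb where it is the nearest counted gene. The titles of the PND8 and repopulation ATAC libraries name the Ki67rfp reporter, and that of the adult library names C57 only. At this locus the reporter cannot be told apart from the other differences between those libraries. The H3K27ac libraries were from wild-type mice. Only the closest of the 12 had H3K27ac, in 5 libraries: all 4 of cuprizone and the first of repopulation. The other 11 were in 0 of 12. The mark stood instead on neighbouring shared sites: a pair at -198.043 and -197.767 kb was marked in all 10 libraries outside adult and in neither adult library. Mki67 RNA, in CPM (the gene's count scaled to its library's effective total), was 13.4 and 11 in adult, 242 and 282 in PND8 Ki67-negative, 919 and 1107 in PND8 Ki67-positive, 336 and 463 in Ki67-negative repopulating and 930 and 1086 in Ki67-positive repopulating libraries. The Ki67 groups were sorted on this gene's product or its reporter, so its RNA checks the sort, and the libraries followed their labels; the Ki67-negative groups were still above adult.

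**Figure D3:**
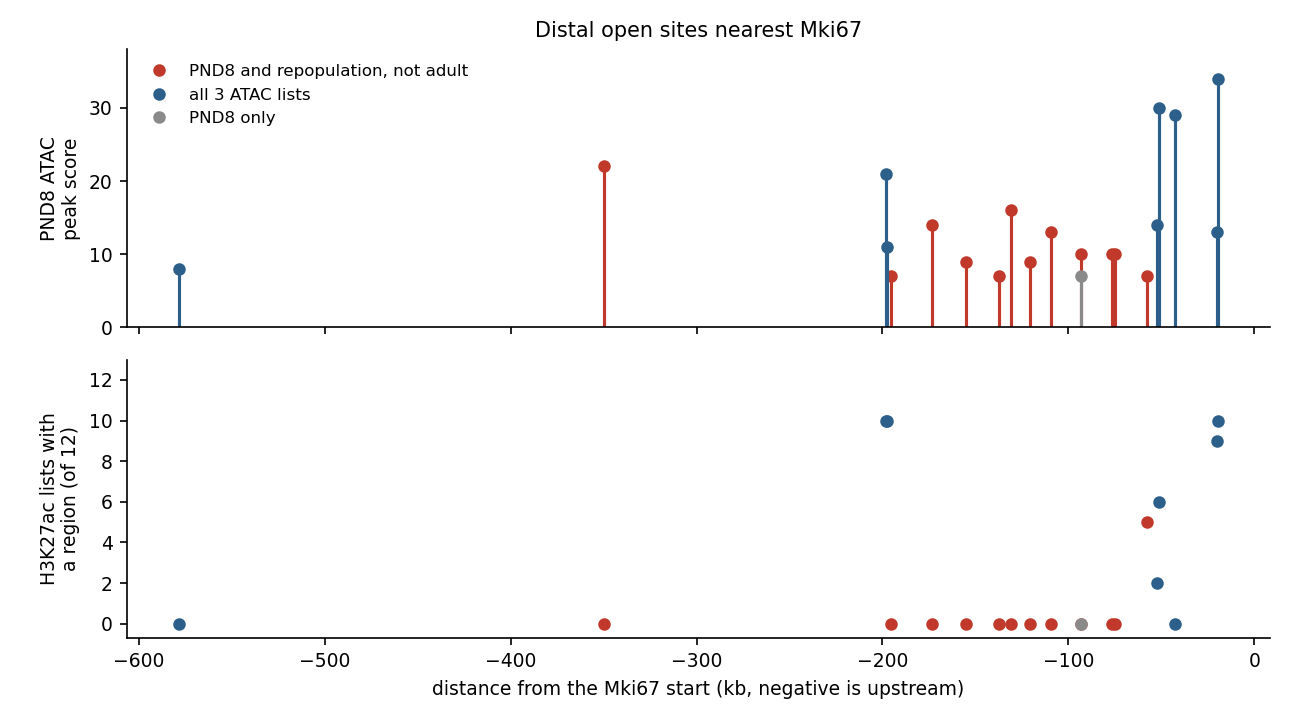
Distal PND8 peaks nearest Mki67 by distance from its start in kb (horizontal axis), with the ATAC peak score (top) and the number of H3K27ac libraries with a region, of 12 (bottom); colours give the class of the peak. The red new sites are mostly at 0 of 12, and the blue shared pair near 198 kb upstream is at 10.

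After Mki67 the genes with most new sites were Adgrl2 (11 of 64), H2al2a (11 of 19), Nrp1 (11 of 39), Clmp (10 of 18), Enc1 (10 of 35), Hhat (10 of 20), Scml4 (10 of 14), Tiam1 (10 of 34) and Wwox (10 of 22). Their RNA went in different directions. Scml4, a Polycomb-group-like gene, had 0 and 0.733 CPM in adult, 2.86 and 2.66 in PND8 Ki67-positive and 0.462 and 0.863 in Ki67-positive repopulating libraries. Its PND8 level rose (log2 fold change 2.90 ± 0.76 SE, edgeR adjusted p = 0.0066), while in repopulation the value was 0.83 (adjusted p = 0.511), and the PND8 call was lost without the first adult library (1.89, adjusted p = 0.0528). Nrp1, a semaphorin and VEGF co-receptor, had 336 and 321 CPM in adult and fell by 0.77 in repopulation (adjusted p = 9.67e-04), with 0.18 at PND8 (adjusted p = 0.332). Enc1, an actin-binding protein, fell in both, from 206 and 216 CPM to 108 and 111 at PND8, then to 153 and 147 in repopulating cells. Hhat, the acyltransferase of hedgehog ligands, rose in both (0.88 and 1.25), its PND8 call being lost without 1 library (0.71, adjusted p = 0.052, without the first PND8 Ki67-positive library and 0.63, adjusted p = 0.0626, without the second adult library). Tiam1, an activator of RAC, rose at PND8 by 0.53, a call lost without the second adult library (0.39, adjusted p = 0.0861). H2al2a had no count in any library. A high number of new sites therefore went with higher, lower and absent RNA.

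RNA libraries held 6865903 to 10287876 counts, and 12230 genes were tested. The 8 microglia or macrophage markers summed to 5973 to 8198 CPM and none was at 0 in all libraries of a group, while lymphocyte markers summed to at most 2.84 CPM. Border macrophage markers differed between the groups: they summed to 64.5 to 79.8 CPM in adult, 607 to 859 at PND8 and 26.2 to 43 in repopulation. Astrocyte markers ranged from 61.1 to 567. In bulk samples a change in the share of a cell type and a change in RNA per cell cannot be told apart. The part of these cells in the results below was not tested.

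Genes nearest a new site changed about as often as all genes. In PND8 Ki67-positive against adult, 2092 of the 4124 tested genes nearest a new site (50.7%) were called in either direction, and 49.5% of all genes tested. By direction, 25.1% of all genes tested were higher and 24.3% lower; of the nearest genes 1064 (25.8%) were higher and 1028 (24.9%) lower. In Ki67-positive repopulation against adult 47.7% were called (background 44.9%); by direction the background was 23.9% higher and 21% lower, and the nearest genes had 996 (24.2%) and 972 (23.6%). The Ki67-negative groups against adult had 48.7% called at PND8 (background 46.8%) and 41% in repopulation (background 39.1%). By direction they gave 26.1% higher and 22.6% lower at PND8 (background 25.4% and 21.4%), and 22.8% and 18.2% in repopulation (background 21.5% and 17.6%). Between Ki67-positive and Ki67-negative cells 5.67% were called at PND8 (background 5.9%) and 2.74% in repopulation (background 2.74%): 3.06% were higher and 2.62% lower at PND8 (background 2.75% and 3.15%), and 1.79% and 0.946% in repopulation (background 1.87% and 0.867%). In the direct comparison of repopulation with PND8 Ki67-positive cells 34.3% were called (background 30.9%), 17.1% higher and 17.2% lower (background by direction 16.7% and 14.2%). Of the calls among these genes 49.9% were higher there, and 41.2% with scaling by library size alone. Over all genes tested 54% and 43.8% of the calls were higher, so the change in scaling moved both. The comparisons with adult share the adult libraries. Of the nearest genes 664 (16.1%, background 16.3%) exceeded adult in PND8 and in repopulation, and 568 were below it in both (13.8%, background 12.7%). Being nearest to a new site thus stood near the background throughout.

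Genes nearest the gained sites stood further from it. Of 133 such genes 101 were tested. At PND8 38 (37.6%) were higher and 15 (14.9%) lower in Ki67-positive cells than in adult, and in repopulation 44 (43.6%) and 10 (9.9%). In the Ki67-negative groups 41 (40.6%) were higher and 19 (18.8%) lower at PND8, and 45 (44.6%) higher and 8 (7.92%) lower in repopulation. Between Ki67-positive and Ki67-negative cells 3 (2.97%) were higher at PND8 and 2 (1.98%) in repopulation. In both Ki67-positive groups 30 genes (29.7%, background 16.3%) were higher and 3 (2.97%) lower. Genes nearest the 882 gained shared sites had 29.7% higher and 27.1% lower at PND8, and 28.7% and 21% in repopulation. By contrast, the 310 tested genes nearest a new site marked in all 12 libraries had 18.1% higher and 39.4% lower at PND8, and 21% and 35.5% in repopulation. The median log2 fold change of the gained-site genes was 0.24 at PND8 and 0.22 in repopulation, and over all genes it was 0.00 and -0.01.

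**Figure D4:**
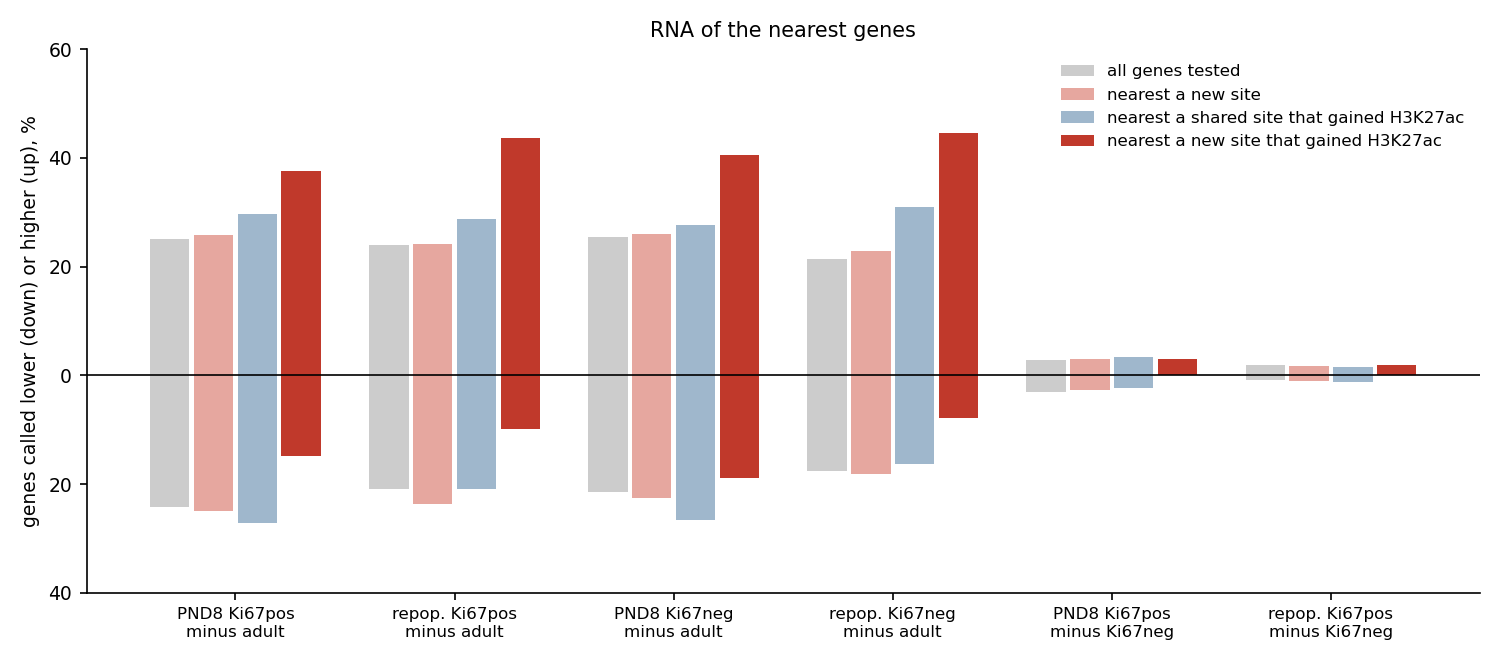
Percent of tested genes called higher (up) or lower (down) by edgeR in 6 comparisons, for all genes, genes nearest a new site, nearest a gained shared site and nearest a gained new site. The pale red bars stay near the grey background, and the dark red bars reach 37.6% to 44.6% higher in the 4 comparisons with adult.

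Among the 30, Phf19 rose most, from 0.925 and 0.244 CPM in adult to 38.1 and 31.9 at PND8, then 35.7 and 49.9 in repopulating cells (log2 fold changes 5.85 ± 0.36 SE and 6.13 ± 0.36 SE, edgeR adjusted p = 3.28e-08 and 2.49e-08). Ki67-negative cells had 20.6 to 28.5 CPM, between the adult and the Ki67-positive levels. Gas7, a cytoskeletal adaptor of the F-BAR family, had 7 new sites among 27 and went from 3.24 and 2.44 to 128 and 141 at PND8, then to 19 and 21.1 in repopulating cells (5.55 and 2.81). Clic4 had 7 new sites among 13, all 7 with H3K27ac in at least 1 library and 3 of them gained, and rose from 22.8 and 22.7 to 81.4 and 92.5 and to 82 and 90.9 (1.93 ± 0.11 SE and 1.92 ± 0.12 SE). Sptbn1, the spectrin whose promoter window is printed above, rose from 28.9 and 23.5 to 114 and 128 and to 85.6 and 97.5 (2.20 and 1.80). No adult value reached a value of another group in these 4 genes.

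Lpl, the lipoprotein lipase that releases fatty acids, had 48.5 and 46.3 CPM in adult, 381 and 557 at PND8, then 124 and 167 in repopulating cells (3.31 and 1.61). Sod1 rose from 26.7 and 27.6 to 50.8 and 55.8 and to 68.3 and 79.5. Iqgap1, a scaffold of actin and RAC signalling, had 27.4 and 24.1 CPM in adult, 39.5 and 52.3 at PND8, then 202 and 233 in repopulating cells (0.83 and 3.08), while PND8 Ki67-negative cells had 12.5 and 13.6. Rpa1, a single-strand DNA-binding protein of replication, rose by 0.86 and 1.18, and Uck2, a pyrimidine salvage kinase, by 2.43 and 2.12. The 3 that fell were Zfp950 (-1.29 and -0.86), Hlcs, the biotin ligase (-1.51 and -0.69), and Sipa1l3 (-0.35 and -0.62).

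**Figure D5:**
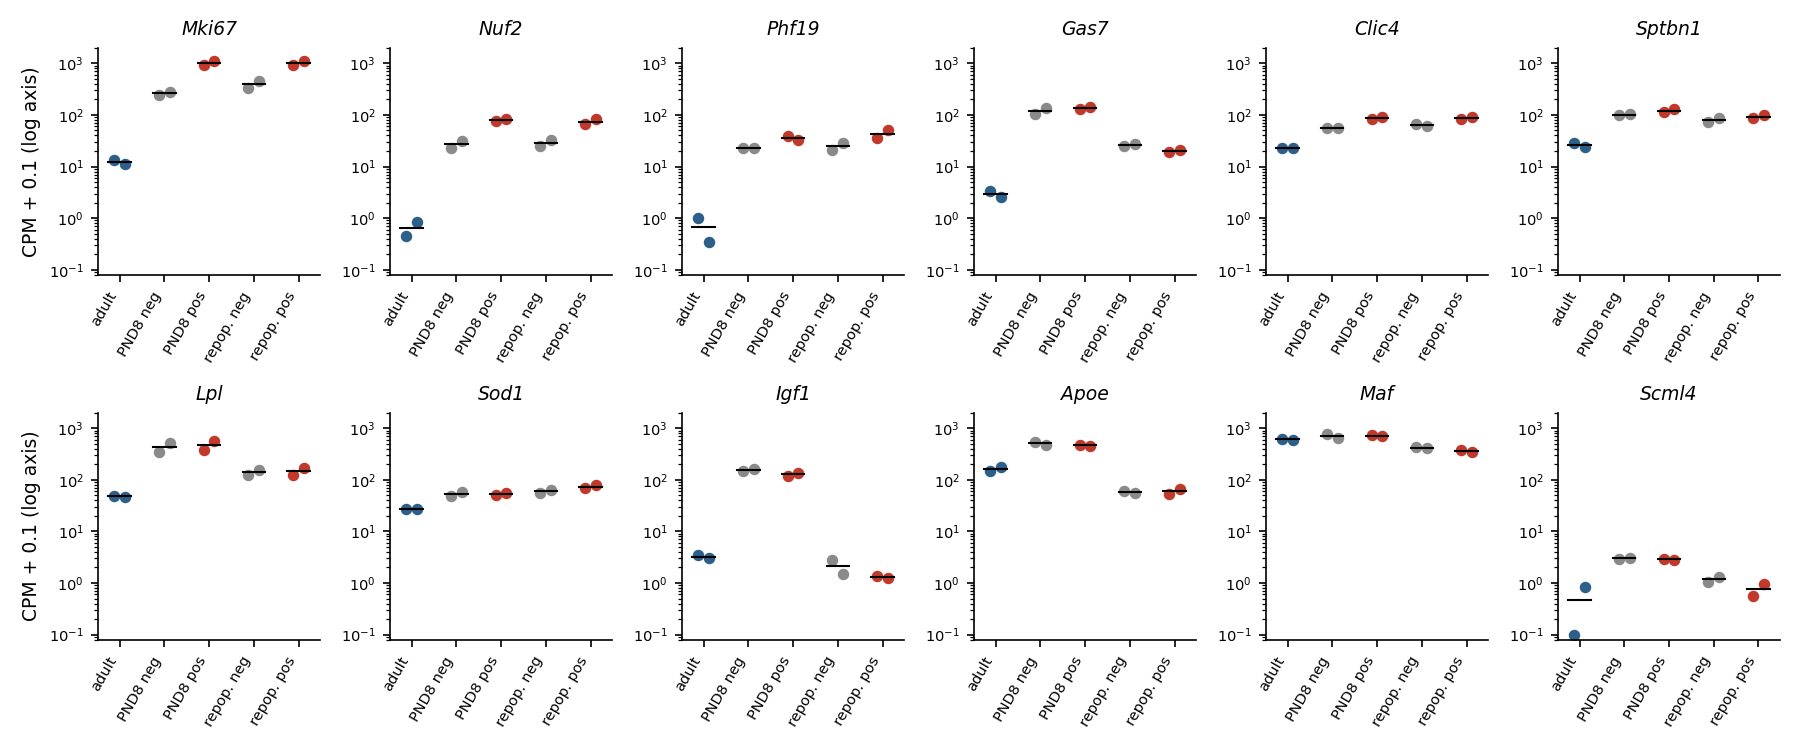
RNA of 12 genes nearest new sites in CPM plus 0.1 on a log axis; each point is 1 library, bars are means of 2, blue is adult, grey Ki67-negative and red Ki67-positive. Phf19, Gas7, Clic4, Sptbn1, Lpl and Sod1 lie above adult in all 4 other groups, while Igf1 and Apoe are above adult at PND8 and below it in repopulation.

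The largest changes near new sites were those of mitotic genes, which rose whether or not a new site was near. Of 3840 tested genes nearest a new site within 100000 bp, 636 (16.6%, background 16.3%) were higher in both Ki67-positive groups and 512 (13.3%, background 12.7%) lower. Bub1, a spindle checkpoint kinase with 1 new site 6630 bp away, had 0.694 and 0.489 CPM in adult, 116 and 118 at PND8, then 86.6 and 113 in repopulating cells (7.59 and 7.36). Dlgap5, a spindle protein, went from 1.16 and 0.733 to 91.6 and 105 and to 88.9 and 102. Depdc1b, with adult counts of 1 and 0, reached 26.2 and 32 CPM and 18.5 and 29.6. Scn3b, a sodium channel subunit with no adult count, was at least 19.1-fold higher at PND8 and at least 3.84-fold higher in repopulation, against a floor of 3 counts per library. Of 52 G2/M genes 18 were nearest a new site, and all 18 rose in both comparisons, as did the other 34. Their 38 new sites had H3K27ac in 6 cases (15.8%) and 0 were gained. Of 42 S-phase genes 12 were nearest a new site, with 10 higher in each comparison and 3 of 14 sites marked (21.4%). Of the 30 other S-phase genes 25 were higher at PND8 and 26 in repopulation. Over all genes tested 25.1% were higher at PND8 and 23.9% in repopulation. Over all new sites 75.1% had no mark.

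Among genes that fell, Setbp1, a SET-binding protein, went from 23.7 and 23.8 CPM to 2.42 and 1.73 at PND8, then 2.31 and 1.87 in repopulating cells (-3.50 and -3.49). Ltf, the neutrophil granule protein lactotransferrin, had 57.7 and 11.1 in adult and at most 1.16 in the Ki67-positive groups. Monocyte and neutrophil markers, of which Ltf is one, summed to 69.4 to 228 CPM in adult, 11.5 to 11.7 in PND8 Ki67-positive and 15.8 to 18.5 in Ki67-positive repopulating libraries; their part in this result was not tested.

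Of the 8 gene lists, that of disease-associated microglia had the highest share of marked new sites. Of 25 genes 10 were nearest a new site, and 17 of their 19 sites (89.5%) had H3K27ac in at least 1 library, 1 of them gained at Lpl. At PND8 6 of the 10 were higher, and 5 were higher and 3 lower in repopulation. Of the 15 others 8 were higher at PND8, and 6 were higher and 5 lower in repopulation. Over all genes tested 25.1% were higher at PND8, and 23.9% were higher and 21% lower in repopulation. Igf1, a growth factor, had 3 new sites, all marked, and 3.35 and 2.93 CPM in adult, 120 and 136 in PND8 Ki67-positive and 1.27 and 1.15 in Ki67-positive repopulating libraries (5.34 ± 0.18 SE and -1.36 ± 0.34 SE). Apoe, the lipid carrier, had 1 new site 2534 bp away, and 149 and 173, 482 and 445, and 52 and 66.9 CPM (1.53 and -1.44). The fatty acid receptor gene Cd36 rose in both (2.12 and 7.29) and Csf1, the CSF1 receptor ligand, at PND8 only by the threshold (1.60, and -0.01 in repopulation). Igf1 and Apoe thus moved in opposite directions in the 2 settings, while Cd36 and Lpl rose in both.

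Of the lipid genes nearest a new site 10 of 14 were higher at PND8 and 9 of 14 in repopulation, with 3 lower there, and of the list's 7 others 4 were higher in each (all genes 25.1% and 23.9% higher). The 14 genes had 19 new sites, 11 of them marked. Abca1, the cholesterol exporter, fell in repopulation by 1.55, from 935 and 913 CPM to 375 and 256. Transcription factors of macrophage enhancers had 66 new sites near 26 genes, 29 of them marked (43.9%) and 1 gained, near Irf8. Of the 25 tested 2 were higher and 13 lower at PND8, and 3 and 12 in repopulation. Of the 22 others tested 10 and 9 were lower. Over all genes tested 25.1% were higher and 24.3% lower at PND8, and 23.9% and 21% in repopulation. Maf had 9 new sites among 54 and 1 marked, with 618 and 592 CPM in adult, 734 and 693 at PND8, then 381 and 348 in repopulating cells (0.24 and -0.73). The PND8 call of Maf was lost with DESeq2 size factors (0.25, adjusted p = 0.0507). Homeostatic microglia genes nearest a new site had 5 of 11 lower at PND8, and 1 higher and 5 lower in repopulation, while the 11 others had 8 and 6 lower (all genes 24.3% and 21% lower); Mertk, a receptor for dying cells, fell by 0.92 and 0.67. Interferon genes had 4 of 23 nearest a new site, with 1 higher at PND8 and 4 in repopulation, where all 19 others were higher too (all genes 25.1% and 23.9% higher). Actin and matrix genes nearest a new site had 4 of 11 higher and 2 lower at PND8, and 6 and 5 in repopulation. The 16 others had 8 higher and 4 lower, and 9 and 3 (all genes 25.1% and 24.3%, and 23.9% and 21%). In this list 11 of 22 new sites were marked.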

How the data were processed

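Tissue-isolated mouse microglia were profiled by ATAC-seq, ChIP-seq and RNA-seq. Per the submitters' processing notes, reads were aligned with STAR 2.7.0f or Bowtie2 2.3.4.1 and peaks called with HOMER 4.11 on mm10 (GRCm38); the ATAC file headers name no build. Raw counts per gene were deposited for 10 RNA libraries and were used as they stand. The peak lists, called per library, give the authors' peak score and normalised tag signal, per the file headers. In the deposited H3K27ac lists the names of later columns are out of order with the values. Fold over input, a ratio computed by the authors before deposit (at least 4-fold was required, per the file headers), was taken from the column that equals total over control tags within 5% in 100% of regions with at least 20 control tags, and whose lowest value is 4. Per the headers, H3K27ac regions used 500 bp windows, 4-fold over input and a false discovery rate of 0.001.

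Peak lists were intersected with at least 1 bp overlap, and each site was given the nearest start of a gene in the count table. RefSeq windows are from GRCm38.p6. RNA was tested with edgeR 4.0.16 (R 4.3.3; TMM, filterByExpr, quasi-likelihood test, all 10 libraries, 1 term per group, Benjamini-Hochberg over 12230 genes, threshold 0.05), with DESeq2 1.42.0 as an alternative. H3K27ac shares were compared over libraries by exact permutation. The model was tested on simulated data. Depth was 6865903 to 10287876 RNA counts and 15233543 to 22888521 H3K27ac tags per library.

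Named were the 12 gained sites best ranked by ATAC score, of which the text describes some, the 10 genes nearest most new sites, the 12 higher and 6 lower genes of largest change within 100000 bp, and listed genes nearest a new site; other sites and gained-site genes, and the sites with sequence, were chosen after their values were seen. The site rule, the gene lists and the tests were chosen with earlier results of these data known.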

Additional observations from a re-analysis of the deposited data

Results flagged for a closer look

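Reversals of 4 genes between the 2 Ki67-positive groups drew attention, each called against adult in opposite directions and each with a test of the difference itself by edgeR. Near new sites, Igf1 was lower in repopulation than at PND8 by a log2 fold change of -6.70, and Apoe by -2.97. Maf differed by -0.97, with a PND8 change against adult of 0.24 that lost its call without any 1 of the 4 libraries of that comparison (adjusted p = 0.0822 to 0.212). Bhlhe41, a transcription factor of microglia and other macrophages, went the other way, with 0.82 higher in repopulation, and its PND8 change of -0.37 lost its call without the first PND8 Ki67-positive library (-0.28, adjusted p = 0.0839) or the first adult library (-0.33, adjusted p = 0.0606).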

How the results depend on the processing

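The number of new sites was 9002 to 11489 with other distances, overlaps or an adult margin of 500 bp, and 910 when only PND8 and repopulation ATAC peaks ranked in the upper part of their lists, from the median score up, were used. The mark's difference between 10 other and 2 adult libraries was 3.52 points at 8-fold over input (adjusted p = 0.273), and 4.84 to 6.83 with 1 library left out, where too few regroupings remain for a call. The Ki67 difference reversed to -0.0952 at 8-fold, and was 0.296 to 1.89 with 1 left out; the PND8 and cuprizone difference was 0.315 to 2.16. Gained sites numbered 24 at 8-fold and 159 to 274 with 1 library left out.

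Requiring a 2-fold change, the share of tested genes nearest new sites that was called was 18.7%, 17.2%, 17.5% and 14.5% against adult (PND8 and repopulation Ki67-positive, then Ki67-negative), 2.26% and 1.21% for Ki67 at PND8 and in repopulation, and 12.1% between Ki67-positive groups; gained-site genes had 14.9% and 21.8% higher (all genes 9.63% and 10%). With no fold required and 1 library left out, the shares were 37.2% to 39%, 30.6% to 37.9%, 33.6% to 49.4%, 26.9% to 31.7%, 1.59% to 9.03%, 0.751% to 2.6% and 21% to 23.4%, and the gained-site genes 33% to 35.6% and 31.1% to 35%. Ki67 calls at PND8 were 15.7% with the unexplained number in the column headers as a term and 3.01% with the compared groups alone; in repopulation 9.68% with that term and 4.72% with no count filter. The causes were not tested, and the shares over all genes in these settings are not given here. The labels do not say that numbers pair libraries. Same-numbered Ki67-negative and Ki67-positive libraries, which share that header number, deviated together (r = 0.338 at PND8, 0.263 in repopulation; other groups -0.008 to 0.097), and a replicate block gave 10.1% and 5.82% for the Ki67 comparisons (all genes 10% and 5.81%). Over the named genes 2879 values kept their call, 132 lost it, 41 gained it and 0 reversed. Single ATAC libraries and weak peaks limit what absence from a list can show.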
